A study of Mus musculus with 2 samples.

Results

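The 8 genes described here are Cxcl9, Cxcl10, Rsad2, Ifit1, Ifit2, Ifit3, Isg15 and Irf7, all known to be induced by interferons. They were chosen by name, as 8 of the 32285 genes of the count matrix. They were followed over 8127 of 8367 barcodes, those with at least 200 genes and at most 20% mitochondrial UMIs (unique molecular identifiers, which count RNA molecules). The matrix came from 1 droplet single-cell RNA library of C57BL/6 mouse skin, taken at an age of 8 weeks and dissociated with Liberase and DNAseII. Cells of neutrophil-depleted skin (anti-Ly6G antibody, clone 1A8, given on 2 consecutive days at steady state) and of control skin were tagged with hashtag antibodies and pooled. No barcode could be assigned to depleted or control skin, because the matrix held 0 hashtag rows and the hashtag library was not used here. All values below therefore describe the pool, with no comparison of depleted with control skin, no replicate and no test.

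Type I interferons, which include interferon beta and the interferon alphas, bind the receptor pair Ifnar1 and Ifnar2 on the same or on neighbouring cells. The kinases Jak1 and Tyk2 at the receptor then pass the signal to a transcription factor complex that binds interferon-stimulated response elements near its target genes. Interferon gamma acts through another receptor. In skin, a low level of these programmes is known in the absence of infection. Among the 8 genes, Cxcl9 and Cxcl10 encode chemokines that attract lymphocytes through the receptor Cxcr3, and Cxcl10 is also a known target of NF-kB. Rsad2 encodes viperin, an enzyme that makes a chain-terminating nucleotide, and Ifit1, Ifit2 and Ifit3 encode proteins that bind viral RNA. Isg15 encodes a ubiquitin-like modifier, and Irf7 a transcription factor that amplifies interferon production.

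On the mm10 assembly, Cxcl9 (chromosome 5, 92321347 to 92328079) and Cxcl10 (chromosome 5, 92346638 to 92348889) are neighbours on the minus strand, 18559 bases apart. Ifit2 (34550694 to 34576419), Ifit3 (34583531 to 34588731) and Ifit1 (34640871 to 34650009) lie on the plus strand of chromosome 19 within 99316 bases. Rsad2 is on chromosome 12 (26442746 to 26456452), Isg15 on chromosome 4 (156199424 to 156200818) and Irf7 on chromosome 7 (141262706 to 141266481), each on the minus strand. The Ifit genes have close copies in the same cluster. Ifit3b had 1252 UMIs, Ifit1bl1 142 UMIs and Ifit1bl2 75 UMIs in all barcodes kept, so the split of reads between Ifit3 and Ifit3b, and between Ifit1 and its copies, is uncertain.

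The 250 bases before the transcription start are shown for the 5 of the 8 genes in which the core letters of the interferon-stimulated response element (ISRE), GAAA, any 2 bases and GAAA, were found on either strand. Sequences are from RefSeq on GRCm38.p6, 5′ to 3′ in the direction of transcription. Capitals mark each ISRE match and, in Cxcl10, also each match to the letters searched for NF-kB, GGG, any 3 bases and TTCC.
Cxcl10, chr5:92348890-92349139, minus strand: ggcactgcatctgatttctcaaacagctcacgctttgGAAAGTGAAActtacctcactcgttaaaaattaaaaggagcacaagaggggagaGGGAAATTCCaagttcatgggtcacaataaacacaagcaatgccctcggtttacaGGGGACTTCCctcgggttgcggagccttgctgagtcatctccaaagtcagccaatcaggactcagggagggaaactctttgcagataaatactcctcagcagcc
Isg15, chr4:156200819-156201068, minus strand: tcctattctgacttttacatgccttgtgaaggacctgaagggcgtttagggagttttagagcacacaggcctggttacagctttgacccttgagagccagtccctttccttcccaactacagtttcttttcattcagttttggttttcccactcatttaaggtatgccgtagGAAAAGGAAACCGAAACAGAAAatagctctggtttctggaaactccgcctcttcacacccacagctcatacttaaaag
Ifit3, chr19:34583279-34583528, plus strand: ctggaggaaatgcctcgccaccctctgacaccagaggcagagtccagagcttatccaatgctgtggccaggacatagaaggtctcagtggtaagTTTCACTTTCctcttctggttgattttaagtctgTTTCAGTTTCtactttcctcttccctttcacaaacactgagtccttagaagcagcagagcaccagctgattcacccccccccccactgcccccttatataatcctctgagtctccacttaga
Ifit1, chr19:34640639-34640888, plus strand: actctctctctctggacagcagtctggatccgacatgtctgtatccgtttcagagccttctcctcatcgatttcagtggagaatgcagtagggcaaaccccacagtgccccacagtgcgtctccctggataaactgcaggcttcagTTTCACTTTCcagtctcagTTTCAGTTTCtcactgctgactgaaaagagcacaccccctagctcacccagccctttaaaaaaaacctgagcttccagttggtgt
Rsad2, chr12:26456453-26456702, minus strand: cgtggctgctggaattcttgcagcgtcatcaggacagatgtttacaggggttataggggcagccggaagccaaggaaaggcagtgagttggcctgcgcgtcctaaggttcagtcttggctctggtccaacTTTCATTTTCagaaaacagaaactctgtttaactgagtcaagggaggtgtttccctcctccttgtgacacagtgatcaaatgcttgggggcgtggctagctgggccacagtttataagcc
The Isg15 window held 3 ISRE matches that overlap each other, starting at positions -78, -72 and -66 counted back from the transcription start. Cxcl10 had 1 such match, at -213, and 2 NF-kB matches, at -159 and -104. Ifit3 and Ifit1 had 2 ISRE matches each and Rsad2 had 1. Over 27025 genes with such windows, 3.46% held the ISRE letters and 5.31% the NF-kB letters in any of their promoters. The NF-kB letters were found in 2 of the 8 genes, Cxcl10 and Ifit2. TTCNNNGAA, the letters searched for the interferon gamma-activated site, was found in 1 of the 8 genes, Ifit2, where it overlaps the NF-kB match, and in 8.13% of all genes. None of the 3 motifs was found in the windows of Cxcl9 and Irf7. A match is a description of the letters and no evidence of binding.

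Barcodes were put into skin cell classes by marker genes. At least 3 markers of a class had to exceed their pooled rate, and barcodes that met the gates of more than 1 compartment (330) were left out as mixed. This placed 6426 barcodes, and 10 classes had 50 or more: 3349 fibroblast-like, 982 basal keratinocyte-like, 901 macrophage-like, 327 suprabasal keratinocyte-like, 190 monocyte-like, 119 skeletal muscle-like, 99 dendritic-like, 94 NK (natural killer) or group 1 innate lymphoid-like, 76 T cell-like and 71 group 2 innate lymphoid-like barcodes. Median depth per barcode was 11536 UMIs in fibroblast-like, 8864 in macrophage-like, 7677.5 in monocyte-like, 10309 in dendritic-like and 10492 in basal keratinocyte-like barcodes, and between 4078.5 and 5119.5 in the 3 lymphoid classes and muscle. A level is given as CPM, counts of the gene per 1000000 UMIs of the class, with a 95% exact Poisson interval. A share of barcodes has an exact binomial interval. Both cover counting error only, and where UMIs sit in few barcodes they are too narrow for the class as a population.

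Cxcl10 was highest in fibroblast-like barcodes. Cxcl10 had 397 CPM (390 to 403) in fibroblast-like barcodes, and then 168 CPM (130 to 214) in group 2 innate lymphoid-like, 126 CPM (107 to 149) in dendritic-like, 119 CPM (103 to 136) in monocyte-like and 117 CPM (110 to 124) in macrophage-like barcodes. These 4 following classes had overlapping intervals. The group 2 innate lymphoid-like value rested on 65 UMIs, 31 of them in 1 barcode. The remaining classes were lower, with 28.7 CPM in skeletal muscle-like, 24.8 CPM in T cell-like, 24.0 CPM in suprabasal keratinocyte-like, 18.8 CPM in basal keratinocyte-like and 7.54 CPM in NK or group 1 innate lymphoid-like barcodes, again with overlapping intervals between neighbours. Against all other gated barcodes, Cxcl10 was 6.23 times as high in fibroblast-like barcodes (5.94 to 6.54).

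Cxcl9 was rare and lay in few barcodes of 3 classes. It had 15.9 CPM (9.43 to 25.1) in dendritic-like, 9.67 CPM (8.73 to 10.7) in fibroblast-like and 7.73 CPM (6.00 to 9.80) in macrophage-like barcodes, and these intervals overlapped from each class to the next. Basal keratinocyte-like barcodes had 5 UMIs, or 0.477 CPM, and the other 6 classes had none. In macrophage-like barcodes 59 of the 68 UMIs were in 1 barcode. That barcode had 6384 UMIs in all, 16 of C1qa, the macrophage complement gene, and 0 of Cxcl10. In dendritic-like barcodes 10 of the 18 UMIs were in 1 barcode, which also held 111 UMIs of Dcn, a fibroblast marker. In fibroblast-like barcodes 386 UMIs lay in 150 barcodes, and 13 barcodes held 50% of them.

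Isg15 and Irf7 were highest in monocyte-like barcodes. The gate of this class uses Plac8 and Ly6c2, which in macrophage-like barcodes were higher where 4 or more of the 8 genes had a UMI. Isg15 had 424 CPM (393 to 456) in monocyte-like, 382 CPM (376 to 388) in fibroblast-like and 248 CPM (238 to 259) in macrophage-like barcodes, each apart from the next. It followed with 157 CPM in group 2 innate lymphoid-like and in dendritic-like barcodes, 109 CPM in T cell-like and 84.8 CPM in NK or group 1 innate lymphoid-like barcodes, whose intervals overlapped in turn. Skeletal muscle-like barcodes had 24.1 CPM, basal keratinocyte-like 15.3 CPM and suprabasal keratinocyte-like 12.4 CPM. Irf7 had 391 CPM (362 to 422) in monocyte-like, 176 CPM (167 to 185) in macrophage-like, 133 CPM (130 to 137) in fibroblast-like and 88.4 CPM (71.9 to 107) in dendritic-like barcodes, with no overlap between neighbours. It was between 19.6 and 32.0 CPM in lymphoid classes and muscle, and 7.34 CPM in basal and 5.01 CPM in suprabasal keratinocyte-like barcodes.

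The 4 antiviral effector genes differed in which class was highest. Rsad2 had 166 CPM (147 to 187) in monocyte-like, 105 CPM (98.2 to 112) in macrophage-like and 29.8 CPM (28.1 to 31.5) in fibroblast-like barcodes. Ifit2 kept this order, with 90.4 CPM (76.7 to 106), 32.8 CPM (29.2 to 36.9) and 24.5 CPM (23.0 to 26.1) in the same 3 classes. Monocyte-like and macrophage-like barcodes were thus above fibroblast-like barcodes in both genes, with no overlap. Ifit1 was highest in fibroblast-like barcodes, with 109 CPM (105 to 112), against 55.7 CPM (50.9 to 60.8) in macrophage-like and 47.9 CPM (38.0 to 59.5) in monocyte-like barcodes. Ifit3 had 131 CPM (128 to 135) in fibroblast-like and 128 CPM (112 to 147) in monocyte-like barcodes, which overlapped, and 59.3 CPM (54.3 to 64.6) in macrophage-like barcodes. In the other 7 classes no level of these 4 genes was above 30.9 CPM, that of Ifit3 in dendritic-like barcodes.

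**Figure D1:**
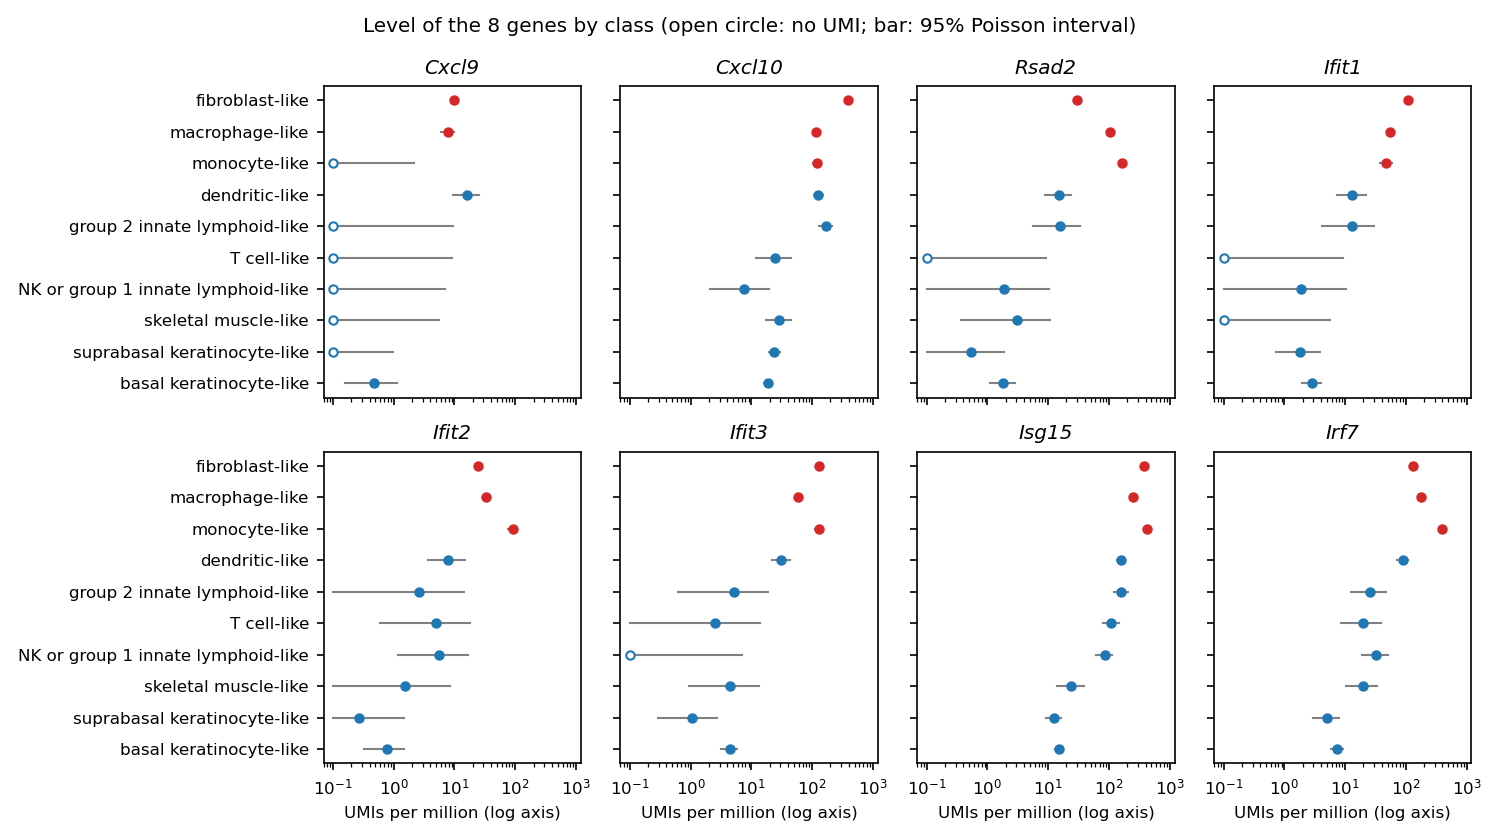
Level of each of the 8 genes in the 10 classes with 50 or more barcodes, in CPM on a log axis cut at 0.1; points are levels, bars 95% Poisson intervals and open circles classes with no UMI. Fibroblast-like, macrophage-like and monocyte-like barcodes (red) are the highest 3 classes for Rsad2, Ifit1, Ifit2, Ifit3, Isg15 and Irf7, while Cxcl10 is highest at 397 CPM in fibroblast-like barcodes.

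Read against all other gated barcodes, with a call at a 2-fold ratio and 20 or more UMIs in both groups together, 5 of the 8 genes were higher in fibroblast-like barcodes (Cxcl9, Cxcl10, Ifit1, Ifit3 and Isg15), where 19.2% of 16748 genes were called higher, and 0 were lower, where 26.6% of all genes were called lower. With every barcode weighing the same, 1 gene, Rsad2, was lower there. Rsad2, Ifit2 and Irf7 were within 2-fold there, with 0.671, 1.49 and 1.55 times the level of the other barcodes. The median log2 ratio of the 8 genes was 1.58. These other barcodes include the keratinocyte-like ones, where all 8 genes were low. By level, Isg15 was lower in fibroblast-like (382 CPM) than in monocyte-like barcodes (424 CPM), and the intervals of Ifit3 in these classes overlapped. In monocyte-like barcodes Rsad2, Ifit2 and Irf7 were higher, 3 of the 8 genes, where 13.6% of all genes were called. Cxcl9 and Cxcl10 were lower there (31.3% of all genes), and Cxcl9 alone with equal weights or a gate factor of 2. In macrophage-like barcodes Rsad2 was higher, at 4.05 times the level of the others, where 14.9% of all genes were called, and Cxcl10 was lower (33.1%). Rsad2 was higher in every alternative run, but 3 genes were higher with 1 marker more, with a gate factor of 2 (a marker then had to exceed 2 times its pooled rate) or with equal weights of barcodes. Cxcl10 was not called lower with equal weights, and 2 genes were lower without the top 1% of barcodes or against fibroblast-like barcodes alone. Dendritic-like barcodes had Cxcl9 higher (13.8%) and 5 of the 8 genes lower (31.4%). The Cxcl9 call rested on 18 UMIs, 10 of them in 1 barcode, and was lost with 1 marker more, without 305 barcodes called doublets, with every barcode weighing the same and against fibroblast-like barcodes alone. The 5 lower became 2 with a gate factor of 2 and 3 without Plac8 and Ly6c2 in the gate. All 8 genes were lower in basal keratinocyte-like barcodes, where 30.9% of all genes were called lower, with a median log2 ratio of -4.44. They were all called lower as well in suprabasal keratinocyte-like (38.0%), skeletal muscle-like (47.0%), T cell-like (22.6%) and NK or group 1 innate lymphoid-like barcodes (28.2%). In group 2 innate lymphoid-like barcodes 6 of the 8 were called lower (26.9%). These counts include Cxcl9, which had 0 UMIs in the 3 lymphoid classes and muscle. The upper bound of its ratio was 1.31 in T cell-like, 1.36 in group 2 innate lymphoid-like, 0.994 in NK or group 1 innate lymphoid-like and 0.794 in skeletal muscle-like barcodes, so a 2-fold lower level of Cxcl9 was not detectable at this depth in these 4 classes.

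The rest of the pathway was read from gene lists chosen with earlier results of these data known. Of 38 other type I interferon targets, 22 were higher and 1 lower in monocyte-like barcodes (13.6% of all genes higher and 31.3% lower). In macrophage-like barcodes 14 were higher and 2 lower (14.9% and 33.1%), and in fibroblast-like barcodes 14 were higher and 5 lower (19.2% and 26.6%). In all keratinocyte-like barcodes together 37 of the 38 were lower, where 32.1% of all genes were called. Ifitm3, which blocks viral entry, had 4837 CPM in monocyte-like, 3594 CPM in fibroblast-like and 544 CPM in all keratinocyte-like barcodes. Bst2, which tethers budding virus, had 957, 882 and 36.2 CPM in these 3 classes. Of 9 nucleic acid sensors, 6 were higher in monocyte-like barcodes (13.6% of all genes), 3 of the sensors being also among the 38 targets. The sensor Zbp1 had 244 CPM in monocyte-like, 160 CPM in macrophage-like and 117 CPM in fibroblast-like barcodes.

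The receptor genes were read in the same classes. Ifnar2 had 255 CPM in monocyte-like, 147 CPM in macrophage-like, 124 CPM in fibroblast-like and 23.3 CPM in all keratinocyte-like barcodes. Ifnar1, the other chain, had 48.5, 50.5, 24.1 and 13.8 CPM in these classes. Of 7 receptor genes, 5 were lower and 1 was higher in all keratinocyte-like barcodes (32.1% of all genes lower and 16.1% higher). The higher one was Ifnlr1, a chain of the interferon lambda receptor, with 150 UMIs there or 10.3 CPM, against 1 UMI in fibroblast-like barcodes. Cxcr3, the receptor of both chemokines, was in 19 of 76 T cell-like barcodes, 19.1% of NK or group 1 innate lymphoid-like barcodes (11.8 to 28.6) and 2.11% of macrophage-like barcodes (1.27 to 3.27). No fibroblast-like barcode of 3349 had a Cxcr3 UMI, and the count of 0 allows up to 0.0896% of barcodes with a UMI (3 counts of the total, counting error only), which sets no limit on cells expressing the gene.

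Of the interferon genes themselves, Ifnb1 had 90 UMIs in 66 barcodes, and 63 of these UMIs were in 47 fibroblast-like barcodes, 1.58 CPM (1.21 to 2.02). Macrophage-like barcodes had 13 Ifnb1 UMIs in 8 barcodes, 1.48 CPM (0.787 to 2.53), and keratinocyte-like barcodes had none. Ifna1, Ifna2, Ifna4, Ifna5, Ifnl2, Ifnl3 and Ifne had 0 UMIs in fibroblast-like, macrophage-like and monocyte-like barcodes. Ifng, the gene of interferon gamma, was in 63.8% of NK or group 1 innate lymphoid-like barcodes (53.3 to 73.5), at 711 CPM, with 122 of its 377 UMIs in 1 barcode. It was in 0.119% of fibroblast-like barcodes.

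A further question was whether the 8 genes lay in few or in many barcodes of a class. Isg15 had a UMI in 70.0% of monocyte-like (62.9 to 76.4), 58.9% of fibroblast-like (57.3 to 60.6) and 51.6% of macrophage-like barcodes (48.3 to 54.9), against 6.11% of basal keratinocyte-like barcodes (4.69 to 7.80). After each barcode was thinned to 2000 UMIs, with 420 shallower barcodes left out, the shares were 43.3%, 32.0% and 26.4%, against 1.87% in basal keratinocyte-like barcodes. Cxcl10 had a UMI in 51.8% of fibroblast-like (50.1 to 53.5), 28.7% of macrophage-like (25.8 to 31.8) and 19.5% of monocyte-like barcodes (14.1 to 25.8), against 5.91% in basal keratinocyte-like barcodes, and in 28.8%, 13.2%, 11.8% and 2.38% after thinning. Irf7 had a UMI in 76.8% of monocyte-like, 49.0% of fibroblast-like and 47.2% of macrophage-like barcodes, against 3.46% of basal keratinocyte-like barcodes. For Ifit3 these shares were 42.6%, 35.0% and 23.8%, against 1.43%, and for Rsad2 49.5%, 14.8% and 34.6%, against 1.53%. Free RNA was estimated from the profile of 278 barcodes under 1000 UMIs and from genes of other cell types, as 19.0% of UMIs in basal keratinocyte-like, 11.2% in fibroblast-like, 5.90% in macrophage-like and 5.21% in monocyte-like barcodes. Those 278 barcodes may hold cells, which makes the estimate rough. At these shares free RNA alone would give basal keratinocyte-like barcodes 15.2 CPM of Isg15 and 12.4 CPM of Cxcl10. Measured there were 15.3 and 18.8 CPM. For Rsad2, Ifit1, Ifit2, Ifit3 and Irf7 the estimate was above the measured level, as for Irf7 at 18.1 and 7.34 CPM. How much of these basal keratinocyte-like shares and levels is free RNA was not tested, so they are not read as expression. Free RNA would give fibroblast-like barcodes 9.04 CPM of Isg15 and 7.34 CPM of Cxcl10, where 382 and 397 CPM were measured.

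Within a class the UMIs were bunched. The number of barcodes with a UMI was divided by the number that Poisson draws in proportion to barcode depth would give, so that 1 means an even spread. In fibroblast-like barcodes 7 of the 8 genes were under 0.75, as were 8.34% of the 11299 genes with 100 or more UMIs there. The ratio was 0.42 for Cxcl9, 0.48 for Ifit3, 0.51 for Rsad2, 0.53 for Ifit1, 0.54 for Cxcl10, 0.62 for Isg15 and 0.66 for Irf7. Ifit2, at 0.88, was the exception, and 24.0% of all genes were below it. The median of the 8 genes was 0.54 and that of all genes 0.95. After thinning to 2000 UMIs, 4 of the 7 genes that still had 100 UMIs were under 0.75. Only the 8 genes were thinned, so no share over all genes is available for this count, and the 8.34% does not apply to it. Of the 15837 Cxcl10 UMIs, 62.4% were in the 335 barcodes with most of it, and 216 barcodes held 50%, with a highest value of 187 UMIs. For Isg15, 284 barcodes held 50% of the 15256 UMIs, for Ifit3 163 barcodes, and for Irf7 323 barcodes.

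**Figure D2:**
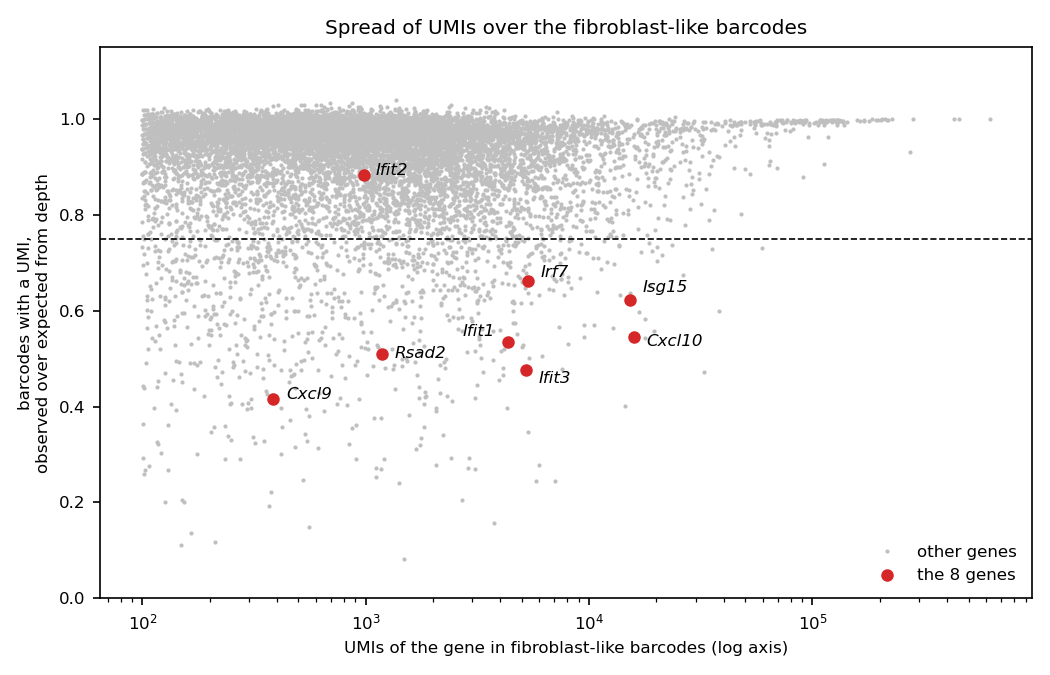
Each point is a gene with 100 or more UMIs in the 3349 fibroblast-like barcodes, by its UMIs (log axis) and by the barcodes with a UMI as observed over the number expected from depth; the dashed line is at 0.75. The labelled genes are the 8 described here, of which 7 lie below the line and Ifit2 lies above it at 0.88, while the median of all genes is 0.95.

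The same measure gave 7 of 7 genes under 0.75 in macrophage-like barcodes (9.29% of 7525 genes), with Cxcl10 lowest at 0.48 and Irf7 highest at 0.65. Cxcl9 had too few UMIs there. In monocyte-like barcodes 4 of 6 genes were under 0.75 (8.87% of 2740 genes), with Cxcl10 at 0.32, while Isg15 at 0.754 and Irf7 at 0.84 lay above. After thinning to 2000 UMIs, 2 of 4 genes in macrophage-like and 0 of 2 in monocyte-like barcodes were under 0.75, again with no share over all genes at that depth. In basal keratinocyte-like barcodes both genes with enough UMIs were under 0.75 (9.4% of 8480 genes), Cxcl10 at 0.33 and Isg15 at 0.41. There 8 of 982 barcodes held 50% of the Cxcl10 UMIs and 6 held 50% of the Isg15 UMIs.

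Some barcodes held many of the 8 genes at once. A UMI of 4 or more of them was found in 42.1% of monocyte-like (35.0 to 49.5), 35.4% of fibroblast-like (33.8 to 37.1), 27.1% of macrophage-like (24.2 to 30.1) and 9.09% of dendritic-like barcodes (4.24 to 16.6), against 0.815% of basal keratinocyte-like barcodes, or 0.106% without barcodes called doublets. After thinning each barcode to 2000 UMIs, 4 or more were left in 15.5%, 6.44%, 5.21% and 0% of monocyte-like, fibroblast-like, macrophage-like and basal keratinocyte-like barcodes. None of 76 T cell-like and 94 NK or group 1 innate lymphoid-like barcodes held 4. Among mixed barcodes 36.4% did, and among those in no class 7.44%. Deeper barcodes show more genes: fibroblast-like barcodes with 4 or more had a median of 14463.5 UMIs, and those with fewer 9801. Within 8000 to 16000 UMIs the shares were 43.9% in monocyte-like, 35.4% in fibroblast-like and 34.7% in macrophage-like barcodes, with overlapping intervals, and 0.482% in basal keratinocyte-like barcodes. After thinning to 2000 UMIs, 2 or more of the genes were found in 46.0% of monocyte-like (38.7 to 53.4), 31.2% of fibroblast-like (29.6 to 32.8) and 27.3% of macrophage-like barcodes (24.3 to 30.4), against 0.829% in basal keratinocyte-like barcodes. All 8 genes were together in 11 fibroblast-like barcodes. At the other end, 15.5% of fibroblast-like barcodes held none, as did 19 of 190 monocyte-like and 85.2% of basal keratinocyte-like barcodes.

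**Figure D3:**
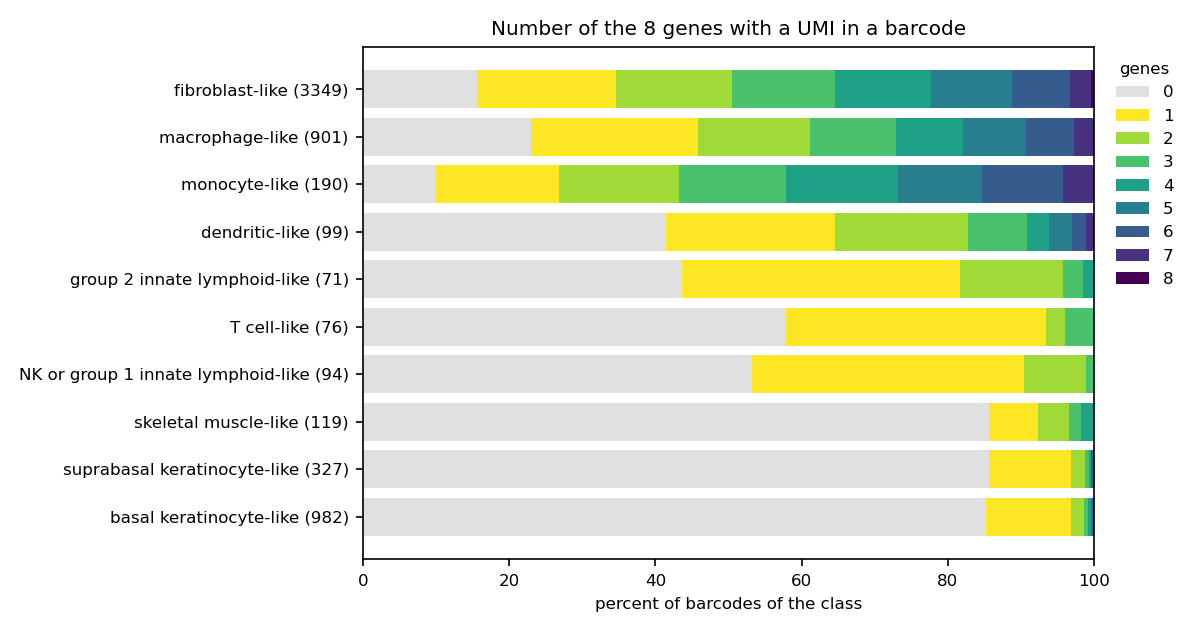
Percent of the barcodes of each class by how many of the 8 genes had a UMI in the barcode, with the number of barcodes of the class in brackets and no thinning for depth. Barcodes with 4 or more make up 42.1% of monocyte-like, 35.4% of fibroblast-like and 27.1% of macrophage-like barcodes, while 85.2% of basal keratinocyte-like barcodes hold none.

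The genes other than the chemokines tended to sit in the same barcodes. Among the 15 pairs of Rsad2, Ifit1, Ifit2, Ifit3, Isg15 and Irf7 in fibroblast-like barcodes, the number of barcodes with both genes had a median of 1.54 times the product of their shares (1.27 to 2.02), and 1.35 times the number expected when depth is allowed for. Ifit3 and Isg15 were together in 1036 barcodes, where the product of shares gives 690.2, and the correlation of their log values over the 3349 barcodes was 0.68. Cxcl10 paired with these 6 genes less closely, with a median of 1.09 times the number given depth. Cxcl9, found in 150 barcodes, had a median of 1.29 with the 6 genes given depth (1.18 to 1.58). Its correlations with them were at most 0.12. In macrophage-like barcodes the 15 pairs had a median of 1.38 given depth, and Cxcl10 with the 6 genes 0.999. In monocyte-like barcodes these medians were 1.22 and 1.13. All points of such a correlation share 1 library and its range of depths.

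Ranking all genes by their correlation with each of the 8 also set Cxcl10 apart from Isg15, Ifit1, Ifit3, Irf7 and Rsad2. Over 3349 fibroblast-like barcodes and 13002 genes, the 3 genes most like Isg15 were Ifit3 (r = 0.68), Bst2 (0.59) and Ifit1 (0.59). Those most like Ifit3 were Isg15, Ifit1 and Iigp1 (0.57), a GTPase gene, and those most like Irf7 were Bst2 (0.54), Ly6e (0.51) and Isg15 (0.51). Rsad2 and Ifit1 were likewise closest to Ifit genes, Isg15 and Iigp1, at 0.42 to 0.62. Ifit2 reached no more than 0.20 and Cxcl9 no more than 0.15 (Gbp2), values too weak in such sparse counts to be read. For Cxcl10 the 3 most alike were Cxcl1 (0.43), a neutrophil-attracting chemokine gene, Ptgs2 (0.40), the gene of an inducible prostaglandin synthase, and Junb (0.37), an immediate early gene. Isg15 came at rank 57 (0.22). Over 901 macrophage-like barcodes the leading genes for Cxcl10 were Il6 (0.25), Nfkbia (0.24) and Nfkbiz (0.24), and Isg15 came at rank 327.

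Barcodes with 4 or more of the 8 genes were then set against the others of their class, for genes that had no part in choosing them. In fibroblast-like barcodes 27 of 36 other type I targets were 2-fold higher in the 1186 barcodes with 4 or more, where 1.86% of 14369 genes were called higher. Their median log2 ratio was 1.33, against -0.09 for all genes. Without the Ifit copies, which may share reads with members, the count was 26 of 35. Ifi44 had 27.2 CPM in barcodes with 4 or more and 3.47 CPM in the others, Oas3, which senses double-stranded RNA, 23.1 and 3.61 CPM, and Bst2 1284 and 561 CPM. In macrophage-like barcodes 35 of 38 were higher (3.78% of all genes) and in monocyte-like barcodes 24 of 38 (3.08%).

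Of the interferon gamma targets, 11 of 17 were higher in fibroblast-like barcodes with 4 or more of the 8, where 1.86% of all genes were called higher. Among them, Iigp1 had 207 and 43.0 CPM and Gbp5 28.6 and 6.94 CPM. The name of a list does not say which interferon acted here, if any, and this was not tested. Psmb8, a subunit of the immunoproteasome, had 179 CPM in barcodes with 4 or more and 101 CPM in the others, and Irf1 166 and 161 CPM. Of 7 nucleic acid sensors 3 were higher, Ifih1, Zbp1 and Ddx58. None of the 5 receptor genes with enough UMIs was past 2-fold. Ifnar2 had 135 CPM in barcodes with 4 or more and 116 CPM in the others. Ifnb1 had 45 UMIs, 2.54 CPM, in barcodes with 4 or more and 18 UMIs, 0.811 CPM, in the others, a ratio of 3.13 (1.77 to 5.74).

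Other properties moved with this split. Fibroblast-like barcodes with 4 or more of the genes had a median of 3776.5 genes and 0.840% mitochondrial UMIs, and the others 3051 genes and 1.09%. Their summed macrophage markers were 22.3 and 24.8 CPM, with 0 of 8 markers at 0 in either group. Summed monocyte markers were 3315 CPM in barcodes with 4 or more and 1441 CPM in the others, but 3305 and 1435 CPM of this was the single gene Plac8. The defining monocyte genes Chil3 (0.113 and 0.0901 CPM) and Ly6c2 (1.47 and 1.31 CPM) were near 0. In macrophage-like barcodes the summed macrophage markers were 10415 CPM with 4 or more and 6390 CPM with fewer. Of these, C1qa was 2909 and 1459 CPM, C1qb 3160 and 1752 CPM, and C1qc 1547 and 789 CPM. Pf4 was 1167 and 749 CPM, Ms4a7 90.8 and 66.0 CPM, and Mrc1 1026 and 980 CPM. Adgre1 (301 and 325 CPM) and Cd163 (213 and 271 CPM) were lower with 4 or more. The summed fibroblast markers were 787 and 332 CPM. Plac8 was 539 and 146 CPM there and Ly6c2 135 and 66.2 CPM, and both are markers of the monocyte gate. The summed dendritic markers were 67.0 and 184 CPM, and median depth was 12443.5 and 7486 UMIs. In monocyte-like barcodes the summed monocyte markers were 7655 CPM with 4 or more and 6099 CPM with fewer, the macrophage markers 1506 and 870 CPM, and the fibroblast markers 631 and 1394 CPM. Median depth there was 7962 and 7416.5 UMIs. The part of depth and of these other RNAs in the split was not tested, beyond the values within 8000 to 16000 UMIs, where 28 of 35 type I targets were higher in fibroblast-like barcodes with 4 or more (1.74% of all genes).

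A Cxcl10 UMI divided fibroblast-like barcodes differently. Barcodes with a Cxcl10 UMI (1735) set against those without (1614) had 0 of 36 other type I targets past 2-fold, where 1.45% of 14369 genes were called higher. Their median log2 ratio was 0.38, against -0.08 for all genes. This split uses 1 gene, while the split above uses 4 or more of 8 genes and counts Cxcl10 among them. No split by another single gene was made, so the part of the kind of split in these differences was not tested. Of 12 NF-kB targets 4 were higher and the median was 0.92. Ccl2, a monocyte-attracting chemokine gene, had 1127 CPM in barcodes with a Cxcl10 UMI and 370 CPM in those without, Cxcl2 198 and 65.4 CPM, Ptgs2 659 and 243 CPM, and Cxcl1 1279 and 475 CPM. The adhesion gene Icam1 had 119 and 120 CPM. None of 11 immediate early genes was past 2-fold, with a median of 0.47. With a split by 4 or more of the 8 genes instead, 0 of the 12 NF-kB targets were past 2-fold and Cxcl1 had 995 CPM in barcodes with 4 or more and 924 CPM in the others. Median depth was 13182 UMIs with and 9509 UMIs without a Cxcl10 UMI. Within 8000 to 16000 UMIs, 5 of 11 NF-kB targets and 0 of 35 type I targets were higher (0.936% of all genes). In macrophage-like barcodes with a Cxcl10 UMI 3 of 12 NF-kB targets and 2 of 38 type I targets were higher than in those without (2.92%).

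**Figure D4:**
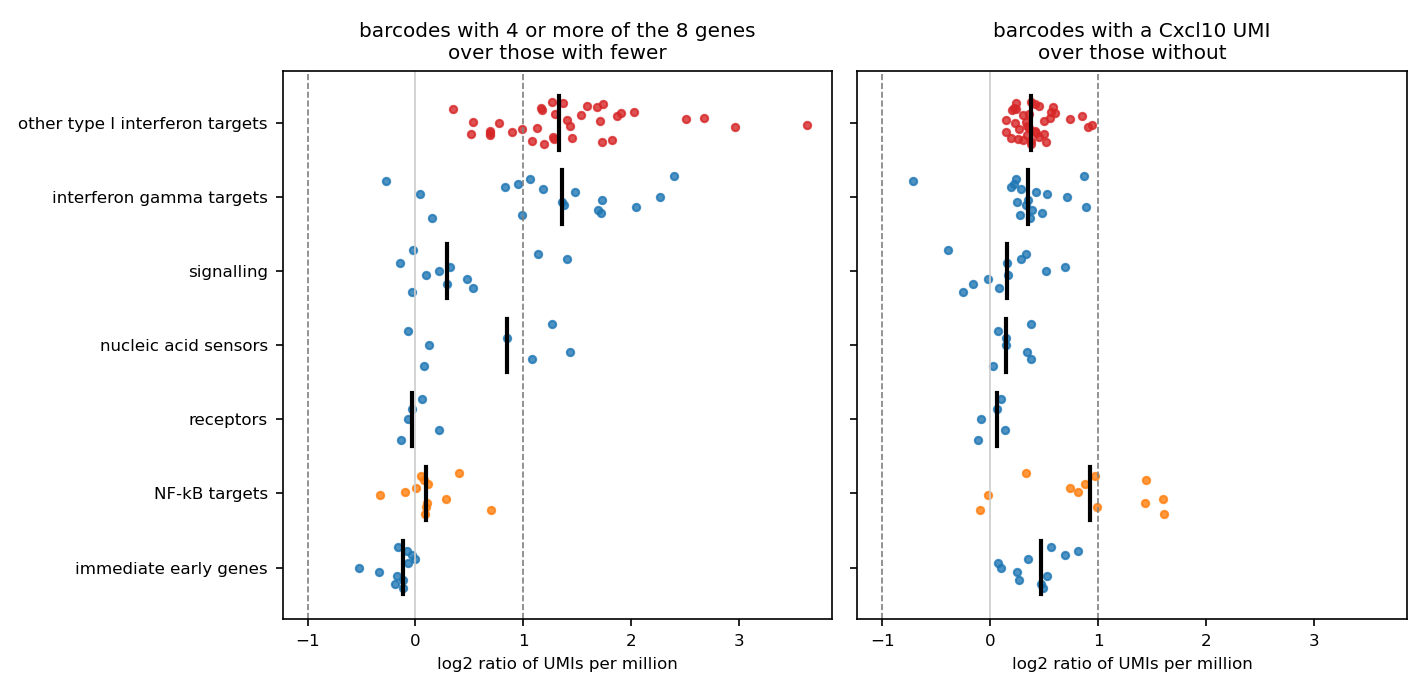
Log2 ratio of CPM for the genes of 7 lists in fibroblast-like barcodes, on the left for barcodes with 4 or more of the 8 genes over those with fewer and on the right for barcodes with a Cxcl10 UMI over those without. Each point is a gene with 20 or more UMIs, black bars are medians and dashed lines mark 2-fold; type I targets (red) have medians of 1.33 and 0.38, and NF-kB targets (orange) 0.10 and 0.92. The left split uses 8 genes, Cxcl10 among them, and the right split 1 gene.

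Both properties together gave 4 sets of fibroblast-like barcodes. The 885 barcodes with a Cxcl10 UMI and 3 or more of the 6 other genes had 695 CPM of Cxcl10, 704 CPM of Isg15 and 1181 CPM of Cxcl1. The 850 barcodes with a Cxcl10 UMI and fewer than 3 had 621 CPM of Cxcl10, 107 CPM of Isg15 and 1413 CPM of Cxcl1. The 453 barcodes with 3 or more of the 6 genes and no Cxcl10 UMI had 634 CPM of Isg15 and 343 CPM of Cxcl1, and the 1161 barcodes with neither had 83.7 CPM and 549 CPM. The Cxcl10 and Isg15 levels follow from how the sets were made, as both genes were used for it. Iigp1 followed the 6 genes, with 207 and 171 CPM in the sets with 3 or more of them, with and without a Cxcl10 UMI, and 42.8 CPM in the set with a Cxcl10 UMI and fewer than 3. Cxcl9, which played no part in making the sets, had 17.1, 7.70, 6.09 and 3.68 CPM in these sets. Its 386 UMIs lay in 150 fibroblast-like barcodes, and 1 barcode of the first set held 31 of these UMIs, so this order may rest on few barcodes.

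Fibroblast-like barcodes also differed by subset. Subsets were marked with 2 or 3 genes each, taken from groups known from earlier results of these data, and 1452 barcodes fell into just 1 of them. A UMI of 4 or more of the 8 genes was found in 52.9% of the 649 Cxcl13 Vegfd Mmp3 barcodes (48.9 to 56.7), 42.7% of the 143 Rasgef1c Cd55b Adamts9 barcodes (34.4 to 51.2), 41.6% of the 365 Nova1 Nkain2 Nox4 barcodes (36.5 to 46.9) and 13.3% of the 158 Cilp Thbs4 Myoc barcodes (8.42 to 19.6). It was found in 1 of the 120 Cyp2f2 C1qtnf3 barcodes, or 0.833% (0.0211 to 4.56). The Crabp1 Dkk2 subset had only 17 barcodes. Median depth was 12210, 13704, 13098, 8554 and 8165.5 UMIs in the first 5 named. After thinning to 2000 UMIs, 2 or more of the genes were found in 50.5%, 25.9%, 29.7%, 14.7% and 0.833% of these.

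**Figure D5:**
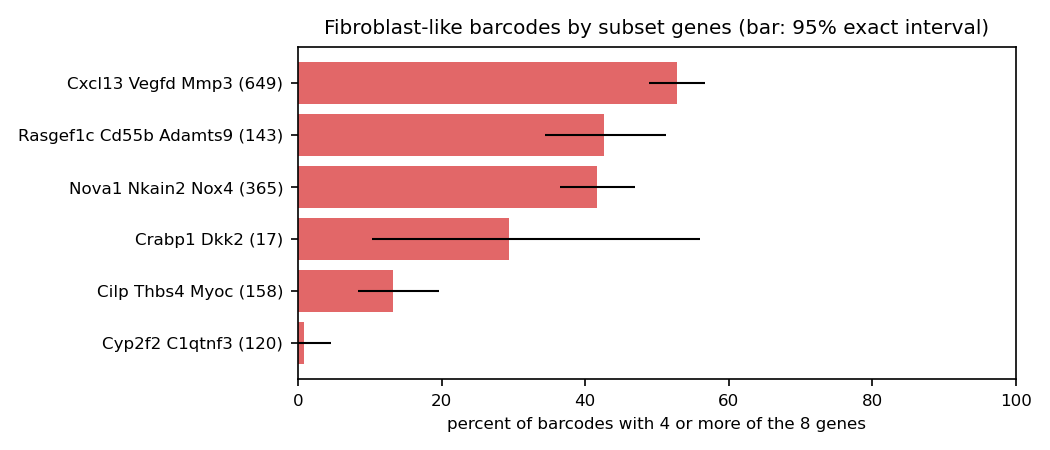
Percent of fibroblast-like barcodes with 4 or more of the 8 genes, by the subset genes they carry, with the number of barcodes in brackets and 95% exact binomial intervals as black lines. The share is highest at 52.9% in the Cxcl13 Vegfd Mmp3 subset and lowest at 0.833%, 1 of 120 barcodes, in the Cyp2f2 C1qtnf3 subset.

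By level, Isg15 had 580 CPM (563 to 596) in Cxcl13 Vegfd Mmp3 barcodes and 26.1 CPM (17.3 to 37.7) in Cyp2f2 C1qtnf3 barcodes. The free RNA estimate of Isg15 was 9.04 CPM for all fibroblast-like barcodes and was not made for these subsets. Ifit3 had 230 CPM (220 to 240) and 10.2 CPM (5.11 to 18.3) in these subsets, and Irf7 227 CPM (216 to 237) and 16.8 CPM (9.93 to 26.5). Rsad2 had 39.1 CPM in the first and no UMI in the Cyp2f2 C1qtnf3 subset. Cxcl10 had 573 CPM (557 to 590) and 81.0 CPM (64.9 to 99.9). Cxcl9 and Ifit2 did not follow. Cxcl9 had 16.1 CPM (13.5 to 19.1) and 17.7 CPM (10.7 to 27.6), and Ifit2 24.1 CPM (20.8 to 27.7) and 19.6 CPM (12.1 to 29.9), with overlapping intervals. In Nova1 Nkain2 Nox4 barcodes Cxcl10 was 223 CPM (210 to 236) and Isg15 351 CPM (335 to 368), while in Rasgef1c Cd55b Adamts9 barcodes Cxcl10 was 460 CPM (431 to 490) and Isg15 342 CPM (317 to 368). These subsets thus differed in Cxcl10 with overlapping Isg15.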

How the data were processed

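The data are 1 pooled RNA library of mouse skin from 8 week old animals. The authors deposited raw UMI counts per gene and barcode, made with Cell Ranger on mm10 per the submitters' processing notes, whose version and settings are not given in the sources used here. The matrix had 83725065 UMIs in 8367 barcodes with a median of 9426 UMIs. No condition could be given to a barcode, so no comparison between conditions was made and no p-value was computed.

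The gene minimum (200) and the mt- limit (20%) took out 240 barcodes. Markers of 23 lists defined the classes. A marker counted where its rate in a barcode was above its pooled rate, at least 3 were needed, and barcodes meeting gates of more than 1 compartment were left out as mixed, which also removes many doublets. UMIs were summed per class. Ratios carried 0.5 added UMIs on the log2 scale and were called at 2-fold with 20 UMIs. The spread over barcodes was taken for genes with 100 UMIs, with a threshold of 0.75. Free RNA was taken as the summed profile of barcodes under 1000 UMIs, scaled in each class by the level of collagen genes and Dcn (keratinocyte classes) or of keratins (others). Correlations used log(1 + counts per 10000). Calculations were tested on simulated data. The 8 genes, lists, gates and thresholds were chosen with earlier results of these data known. Beside the 8 genes, the text names genes of the lists that had the highest CPM or the largest ratios, the 3 genes most correlated with each of the 8, and some further list genes, such as Icam1, Irf1 and Ifnar1, picked after their values were seen. The lists held 121 symbols, and 5 of them (Mx1, Mx2, Cxcl11, Mb21d1 and Sting1) were not matched to a gene of the table. Promoters are from RefSeq, GRCm38.p6, and gene positions from the GENCODE annotation of mm10 given for reference, which may differ from the annotation the authors counted on. Python 3.11.15, NumPy 2.4.6, SciPy 1.17.1, pandas 2.3.3, Scanpy 1.11.5 and matplotlib 3.10.9 were used.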

Additional observations from a re-analysis of the deposited data

How the results depend on the processing

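No paired analysis was possible because there was 1 library with no replicate and no condition per barcode. Of 712 recomputed log2 ratios between classes, 0 changed sign past 2-fold and 41 crossed the 2-fold line. The count of the 8 genes called higher in macrophage-like barcodes went to 3, in place of 1, with 1 marker more, with every barcode weighing the same or with a gate factor of 2 (the last chosen after seeing the data), and the count called lower there to 0 with equal weights and to 2 without the top 1% of barcodes or against fibroblast-like barcodes alone. With equal weights 1 gene was called lower in fibroblast-like barcodes, in place of 0. Cxcl9 in dendritic-like barcodes was called higher in 0 cases with 1 marker more, without 305 scrublet doublets, with equal weights and against fibroblast-like alone, and genes lower there were 2 with gate factor 2 and 3 without Plac8 and Ly6c2, in place of 5. Genes lower in monocyte-like barcodes were 1, in place of 2, with equal weights and with gate factor 2. With 1 marker more, Isg15 was in 55.4% and 4 or more genes in 33.5% of macrophage-like barcodes, and within 8000 to 16000 UMIs 34.7%. Without doublets, basal keratinocyte-like shares were 4.46% for Isg15, 4.14% for Cxcl10 and 0.106% for 4 or more genes. With gate factor 2, fibroblast-like shares were 54.9% for Isg15 and 47.5% for Cxcl10. Thinning to 2000 UMIs gave the Isg15 shares of 43.3% in monocyte-like, 32.0% in fibroblast-like, 26.4% in macrophage-like and 1.87% in basal keratinocyte-like barcodes, and for Cxcl10 11.8%, 28.8%, 13.2% and 2.38% in the same classes. Barcodes with 4 or more genes were then 15.5%, 6.44%, 5.21% and 0%. Genes under 0.75 in spread were then 4 of 7 with enough UMIs in fibroblast-like, 2 of 4 in macrophage-like and 0 of 2 in monocyte-like barcodes, and 2 of 3 in monocyte-like barcodes without Plac8 and Ly6c2 in the gate. Thinning leaves fewer UMIs per gene and was done for the 8 genes only, so the thinned counts have no share over all genes beside them. The cause of the other changes was not tested. At this depth, a gene with no UMI in a class of under 100 barcodes cannot be told from one at a low level.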
